A study of Oryctolagus cuniculus with 134 samples.

Results

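The genes PLAU, PLAUR and PLAT of plasminogen activation were followed across the aorta and the heart valves of rabbits. They were selected on their gene symbol in the deposited tables, which matched 3 of 29587 genes (PLAU ENSOCUG00000003155, PLAUR ENSOCUG00000027400 and PLAT ENSOCUG00000009967), each with 1 row. The group was proposed after PLAU had been seen to be higher in the aorta of cholesterol-fed rabbits, so the aorta of those rabbits against the chow aorta is described for all 3 genes without a test. The same chow aorta libraries enter other tests below, which are therefore not independent of that choice. All 3 genes passed the filter on low counts in each of the 5 tissues.

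PLAU encodes urokinase, a serine protease that cuts the zymogen plasminogen into plasmin, and PLAUR encodes the receptor that holds urokinase at the cell surface. PLAT encodes tissue-type plasminogen activator, which cuts the same zymogen, mainly at the surface of fibrin, and is made by endothelium among other cells. Plasmin dissolves fibrin, degrades matrix proteins and activates some matrix metalloproteinases, and in arteries urokinase and its receptor are known from macrophages and migrating smooth muscle cells.

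The data were RNA libraries of 27 male New Zealand White rabbits, with a ring of aorta and each of the 4 heart valves sampled from an animal, so that p-values within a tissue rest on the spread between separate animals. Rabbits were 12 weeks old at the start of a 16-week protocol. Control rabbits (Ctrl) ate chow. CHT rabbits were fed cholesterol at 0.3% and Lard rabbits lard at 5%, and either feed was joined by vitamin D2 in drinking water over 15 days, at 25000 U/day for a set body weight. IR/CHT rabbits had the CHT regimen and, after 8 weeks of diet, X-ray irradiation of the heart with 24 Gy in 3 fractions of 8 Gy. The authors describe the beam, for irradiated chow rabbits, as aimed at the aortic valve and thoracic aorta. No dose per tissue is given, so local exposure and tissue response cannot be told apart between irradiated tissues. Each tissue had 7 Ctrl, 6 CHT, 7 Lard and 7 IR/CHT libraries, except for 6 Ctrl libraries of the mitral valve. Ctrl rabbits had no vitamin D2, so that diet and vitamin cannot be told apart in a comparison with Ctrl, and no group of irradiated chow rabbits was analysed here.

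Libraries held 13564979 to 50577676 counted read pairs (median 18235577). Levels are given as CPM, read counts scaled by library sizes that were adjusted with the trimmed mean of M values (TMM) over all libraries together. Plate 2 held every library of the aorta, and plate 1 every CHT library of the left-sided (aortic and mitral) valves. Smooth muscle markers set the aorta apart from the valves. The summed level of 6 such genes was 81800 to 115700 CPM in Ctrl aorta and 161.9 to 1337 CPM in the Ctrl valves. In addition, 7 fibroblast and valve interstitial genes summed to at least 10810 CPM in each library. Neither sum tells 1 valve from another. Some libraries stood apart. In the Ctrl tricuspid valve, library L168 had 32540 CPM for the fibroblast and valve interstitial genes against 11580 to 16850 CPM in the others. Its endothelial sum was 508.5 CPM against 1029 to 1525, and its heart muscle sum 544.9 CPM against 8134 to 40920. It also had the highest PLAUR (4.35 CPM) and PLAT (41.7 CPM) of that group. In the IR/CHT pulmonary valve, library L275 had 124.1 CPM for 8 endothelial genes against 1206 to 1584 CPM in the other 6, and library L176 had 19660 CPM for the smooth muscle genes against a median of 617.6. The 7 heart muscle genes ranged from 160.8 to 12180 CPM in Ctrl aortic valves and from 9.09 to 344.2 CPM in CHT aortic valves. In whole tissue, fewer cells of a type and less RNA per cell cannot be told apart.

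Calls required a fold change above 1.5 together with an adjusted p-value below 0.05 (edgeR's quasi-likelihood test with Benjamini-Hochberg adjustment over all genes of the tissue). In the aortic valve, 1 of the 3 genes was called in CHT against Ctrl, where 11.9% of all tested genes were, and in the mitral valve 2 were called beside 5.62% of all genes. For IR/CHT against Ctrl, 3 of 3 were called in the aorta beside 34.3%, 2 in the aortic valve beside 42.8% and 2 in the mitral valve beside 17.7%. For IR/CHT against CHT, 2 were called in the aortic valve beside 19.7%, and none in the aorta (0.596% of all genes; 1 of the 3 at an unadjusted p under 0.05) or the mitral valve (0.189%, 2 of the 3), by edgeR or DESeq2. On Lard, 1 was called in the aorta beside 2.61%, and none in the aortic valve (0.234%) or the mitral valve (0%), where DESeq2 called 0 and no member had an unadjusted p under 0.05.

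In the pulmonary and tricuspid valves, none of the 3 genes was called by edgeR or by DESeq2. At an unadjusted p under 0.05, 1 of 6 gene and valve pairs passed for CHT, 2 for IR/CHT against Ctrl, 1 for IR/CHT against CHT and 0 for Lard. Few genes were called there at all: in the pulmonary valve 0.159% for CHT, 0% for Lard, 0.706% for IR/CHT against Ctrl and 0.0761% for IR/CHT against CHT, and in the tricuspid valve 0.163%, 0%, 0.231% and 0%. Where edgeR called 0 genes, the genes at an unadjusted p under 0.05 and the DESeq2 calls were 253 and 0 for Lard in the mitral valve, 360 and 1 in the pulmonary valve and 1200 and 0 in the tricuspid valve, and 1323 and 9 for IR/CHT against CHT in the tricuspid valve.

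In chow rabbits PLAU was lower in the left-sided valves than in the aorta and the right-sided (pulmonary and tricuspid) valves. Its lowest, median and highest level was 18.6, 28.3 and 35.2 CPM for the aorta, 16.4, 24.4 and 29.0 CPM for the pulmonary valve and 13.1, 21.0 and 32.3 CPM in the tricuspid valve. In the aortic valve it was 7.56, 12.6 and 21.3 CPM and in the mitral valve 10.0, 12.0 and 16.8 CPM. These ranges overlapped in part, and no Ctrl mitral library reached the median of the pulmonary valve. In both right-sided valves PLAU was lower on plate 2 than on plate 1, without overlap. Plate 2 held 16.38 to 18.72 CPM in the pulmonary and 13.1 to 17.05 CPM in the tricuspid valve (n = 2 each). Plate 1 held 20.05 to 29.01 and 17.71 to 32.34 CPM. On plate 2 the means of the aortic and mitral valve were 13.03 and 12.18 CPM, beside 17.55 in the pulmonary and 15.07 in the tricuspid valve.

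With the rabbit as a block, PLAU was higher in the aorta than in the aortic valve (difference of 0.99 on the log2 scale, SE 0.19, adjusted p = 1.08e-04, higher in 7 of 7 rabbits) and the mitral valve (1.14, SE 0.21, adjusted p = 5.78e-05, 6 of 6 rabbits), comparisons in which 51.2% and 34.2% of 16300 genes were called. It was lower in the aortic valve than in the pulmonary valve by 0.71 on the log2 scale (SE 0.19, adjusted p = 0.00252), where 49.6% of genes were called, and lower in the mitral valve than in the tricuspid valve by 0.75 (SE 0.20, adjusted p = 0.0157), where 10.2% were called. The mitral valve was also under the pulmonary valve by 0.86 on the log2 scale (adjusted p = 0.00256, beside 27.9% of genes), and the aortic valve under the tricuspid valve by 0.60 (adjusted p = 0.0117, beside 41.2% of genes). That last difference fell under the fold threshold with DESeq2's size factors or DESeq2, at 0.57 on the log2 scale with the sign unchanged, and with the plate as a covariate, at 0.54. Without rabbit R08273 it was -0.39 (adjusted p = 0.0705) and without R08719 -0.54, neither called. Leaving out R08273 also took the aortic to pulmonary difference under the fold threshold (-0.56), and the mitral to tricuspid difference was not called without R08286 (adjusted p = 0.0553), R08313 (0.0580) or R08709 (0.0547). The aorta was not called against the pulmonary valve (adjusted p = 0.231, beside 38.5% of genes) or the tricuspid valve (adjusted p = 0.104, beside 31.9%), nor the aortic against the mitral valve (adjusted p = 0.638, beside 3.44%) or the pulmonary against the tricuspid valve (adjusted p = 0.718, beside 9.74%).

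On the cholesterol diet PLAU rose in both left-sided valves. Its aortic valve level was 49.6 to 129.5 CPM in CHT libraries (median 63.0), with every one of the 6 above all 7 Ctrl libraries. The mean rose from 13.8 ± 4.73 CPM (SD, n = 7) to 79.9 ± 36.4 CPM (SD, n = 6), a log2 fold change of 2.54 (SE 0.26, edgeR adjusted p = 1.07e-07) that ranked 63rd by p among 15408 genes. In the mitral valve PLAU was at 27.0 to 81.9 CPM in CHT libraries (median 54.5). None of the 6 overlapped with Ctrl, and the log2 fold change was 2.11 (SE 0.25, adjusted p = 4.19e-06), rank 34 of 15322 genes.

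In the pulmonary and tricuspid valves of the same CHT rabbits PLAU was not called. Its levels were 11.3 to 24.7 CPM (median 17.0) in the pulmonary valve and 12.7 to 21.7 CPM (median 18.6) in the tricuspid valve. The log2 fold changes against Ctrl were -0.42 (SE 0.19, edgeR adjusted p = 0.470) and -0.26 (SE 0.17, adjusted p = 0.629), and the groups overlapped in both valves.

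**Figure D1:**
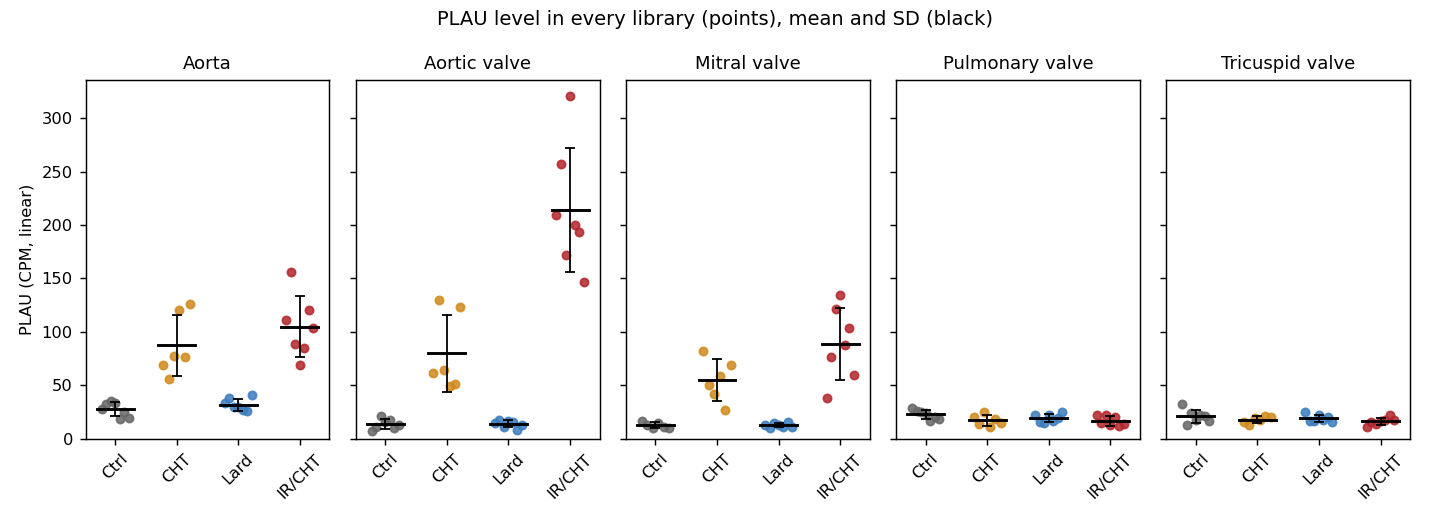
PLAU level in CPM (linear axis from 0) in every library of 5 tissues by treatment, with points for libraries and black lines for the mean and SD. All CHT and IR/CHT points of the aorta and the left-sided valves lie above all Ctrl points of the same tissue, while Lard points overlap with Ctrl in all 5 tissues.

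After irradiation on the same diet, PLAU was higher still in the aortic valve. The 7 IR/CHT libraries were at 146.9 to 320.3 CPM (median 199.9), each above the highest CHT library of 129.5 CPM. The log2 fold change was 3.94 against Ctrl (SE 0.28, edgeR adjusted p = 1.24e-11), a fold of 15.4, and 1.404 against CHT (SE 0.26, adjusted p = 3.28e-04). On plate 1 alone, which held 4 of these IR/CHT libraries at 199.9 to 320.3 CPM and all CHT libraries, the groups were also apart, and no setting ended the call against CHT.

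In the mitral valve the IR/CHT libraries had 38.6 to 134.1 CPM of PLAU (median 87.5), all above Ctrl but overlapping with CHT. The log2 fold change against Ctrl was 2.78 (SE 0.26, edgeR adjusted p = 2.20e-08), rank 28 of 15322 genes, and that against CHT was 0.67 (SE 0.24, adjusted p = 0.222). The IR/CHT pulmonary valve held 12.4 to 22.6 CPM while the tricuspid valve had 11.1 to 21.96 CPM, with log2 differences from Ctrl of -0.43 (adjusted p = 0.268) and -0.37 (adjusted p = 0.565).

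The aorta is given first for the contrast that brought the gene to notice, without a test. PLAU was at 18.6 to 35.2 CPM in Ctrl and 56.0 to 125.7 CPM in CHT aorta (log2 fold change 1.69, SE 0.20). IR/CHT aorta held 68.7 to 156.3 CPM (median 103.5), and against the same Ctrl libraries the log2 fold change was 1.98 (SE 0.20, edgeR adjusted p = 1.40e-08). Since those Ctrl libraries were part of the contrast above, this p-value is not independent of how the gene was chosen. IR/CHT and CHT aorta overlapped and differed by 0.29 on the log2 scale (SE 0.20, adjusted p = 0.379). For CHT against Ctrl, 19.4% of aorta genes were called, and nothing is read from that share for these genes.

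PLAU was not called on Lard in any tissue. The aorta of Lard rabbits held 26.2 to 40.7 CPM, their aortic valve 8.12 to 17.2 CPM and their mitral valve 10.4 to 15.3 CPM. The log2 fold changes were 0.23 (SE 0.19, adjusted p = 0.601), 0.01 (SE 0.25, adjusted p = 0.982) and -0.01 (SE 0.24, edgeR adjusted p = 1). Those of the pulmonary and tricuspid valve were -0.23 (SE 0.18) and -0.16 (SE 0.17) and were not called either.

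Whether 2 valves of the same rabbit differed in their response was tested as an interaction with the rabbit as a block, where a call needed an adjusted p-value below 0.05 and no fold. For CHT, PLAU responded more in the aortic than in the pulmonary valve by 2.91 on the log2 scale (SE 0.35, edgeR adjusted p = 3.94e-06), in a test that called 4.57% of genes, and more in the mitral than in the tricuspid valve by 2.38 (SE 0.26, adjusted p = 5.70e-06), where 2.44% of genes were called. For IR/CHT the same differences were 4.35 (SE 0.34, adjusted p = 2.46e-10, beside 35.8% of genes) and 3.14 (SE 0.25, adjusted p = 8.58e-09, beside 16.7%). Within rabbits, the log2 level in the aortic valve was under that in the pulmonary valve by a mean of -0.77 (SD 0.66) on chow and above it by 2.13 (SD 0.82) on CHT and 3.65 (SD 0.61) on IR/CHT. Every CHT and IR/CHT rabbit lay above every Ctrl rabbit in this difference, and likewise in that between the mitral and tricuspid valve.

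The aortic valve also responded to IR/CHT more than the mitral valve, by 1.20 on the log2 scale (SE 0.31, edgeR adjusted p = 0.00463, beside 29.9% of genes), and more than the aorta, by 2.06 (SE 0.31, adjusted p = 2.14e-05, beside 34.3%). The tissues may have received unlike doses, which the IR/CHT differences between tissues do not account for. For CHT alone the aortic and mitral valve differed by 0.40 (SE 0.32, adjusted p = 0.448), in a test that called 2.81% of genes.

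**Figure D2:**
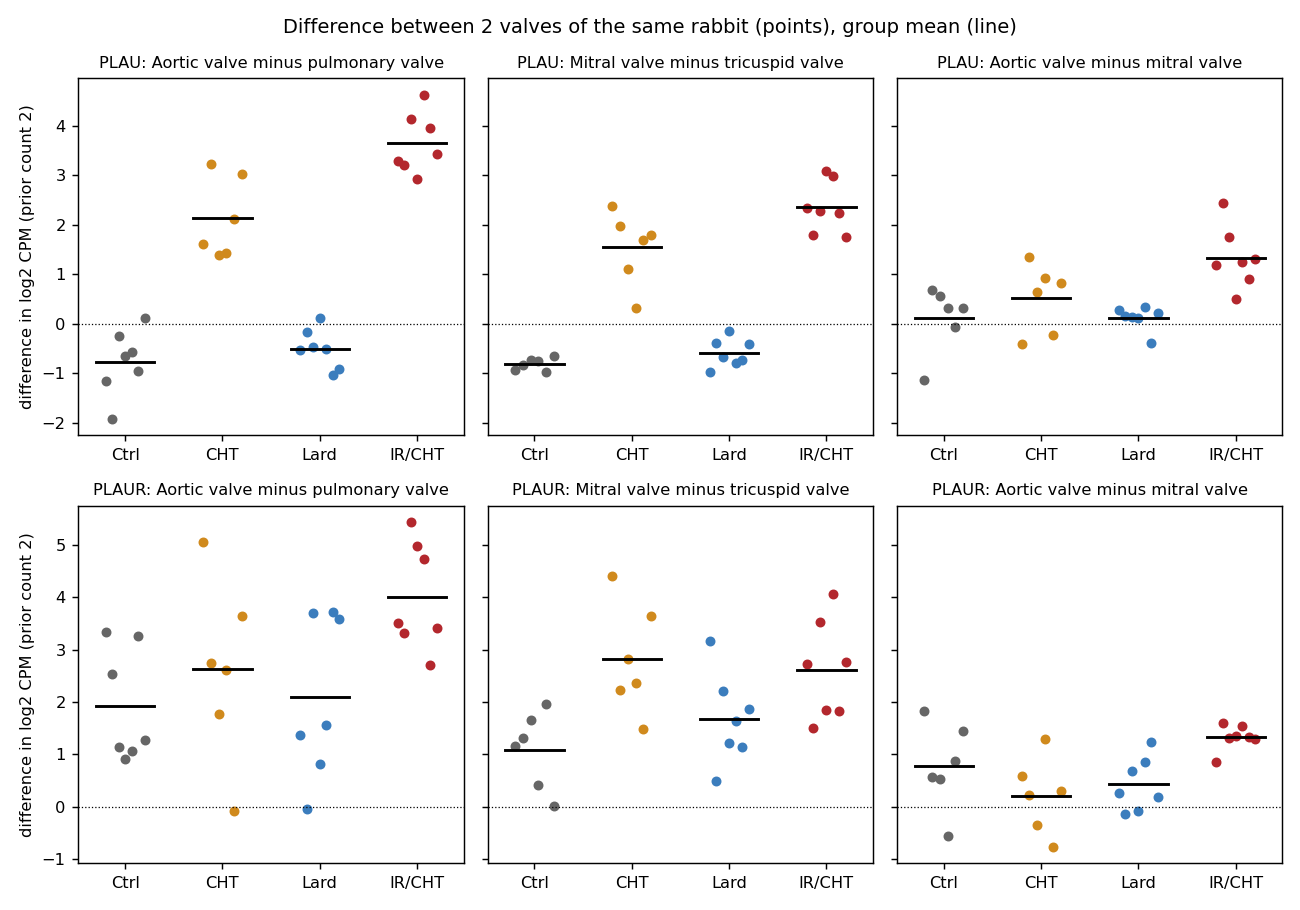
Difference in log2 CPM (prior count 2) of PLAU and PLAUR between 2 valves of the same rabbit, by treatment; points are rabbits and lines group means. For PLAU the aortic minus pulmonary and mitral minus tricuspid differences of all CHT and IR/CHT rabbits lie above those of all Ctrl rabbits, while PLAUR rabbits overlap between groups.

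PLAUR, the urokinase receptor, had few counts in chow tissue. Its lowest, median and highest level was 2.06, 5.37 and 8.39 CPM in the Ctrl aortic valve, 1.42, 2.29 and 3.16 CPM in the mitral valve, 0.516, 1.06 and 2.16 CPM in the pulmonary valve, 0.375, 0.917 and 4.35 CPM in the tricuspid valve. In the aorta, at 0.129, 0.565 and 1.21 CPM, it had 2 to 19 counts per library, few enough for counting error to widen the spread. How much of the spread it makes up was not measured. A single Lard tricuspid library had 0 counts, which allows up to 0.174 CPM (3 counts).

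With the rabbit as a block, PLAUR was higher in the aortic valve than in the aorta (log2 fold change of aorta against aortic valve -3.09, SE 0.42, edgeR adjusted p = 7.95e-07, with 0 of 7 rabbits higher in the aorta), the pulmonary valve (1.90, SE 0.40, adjusted p = 2.58e-04, 7 of 7 rabbits) and the tricuspid valve (1.74, SE 0.39, adjusted p = 0.00105, 6 of 7 rabbits). No call was made between the aortic and mitral valve (0.84, adjusted p = 0.168), the mitral and tricuspid valve (0.90, adjusted p = 0.137, higher in the mitral valve in 6 of 6 rabbits, and called without R08256, at 1.04 and adjusted p = 0.0471) or the pulmonary and tricuspid valve (-0.16, adjusted p = 0.816). The aorta was under each of the other 3 tissues, with -2.25 against the mitral valve (adjusted p = 1.14e-04), -1.19 against the pulmonary valve (adjusted p = 0.0231) and -1.35 against the tricuspid valve (adjusted p = 0.0105). The difference between aorta and pulmonary valve (adjusted p = 0.0973) and that between mitral and pulmonary valve (1.06, adjusted p = 0.0404 against 0.101) were lost without the rabbit in the model. The first was also lost without any one of 3 rabbits, and the second without any one of 6 of the 7 rabbits and without the filter on low counts (adjusted p = 0.0649).

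On CHT, PLAUR was called in the mitral valve. Its levels there were 4.32 to 19.1 CPM (median 6.76) against at most 3.16 CPM in Ctrl, with no overlap, and the log2 fold change was 1.89 (SE 0.48, edgeR adjusted p = 0.0140). The mean rose from 2.36 ± 0.69 CPM (SD, n = 6) to 8.84 ± 5.56 CPM (SD, n = 6). Without CHT library L266, which had the highest level, the call was lost (1.52, adjusted p = 0.0692). The CHT aortic valves ranged from 3.37 to 23.5 CPM (median 11.2), 3 of 6 above all Ctrl libraries, and the log2 fold change of 1.23 (SE 0.56, adjusted p = 0.136) was not called. All 6 CHT libraries were on plate 1. The Ctrl aortic valves had a mean of 4.54 CPM on plate 1 (n = 3) and 5.41 CPM on plate 2 (n = 4).

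On IR/CHT, PLAUR rose in the aorta and both left-sided valves. The aortic valve had 14.2, 23.8 and 97.5 CPM (lowest, median, highest), all above Ctrl, for a log2 fold change of 2.97 (SE 0.57, edgeR adjusted p = 1.16e-04). The mitral valve had 5.72, 12.8 and 38.2 CPM, also without overlap with Ctrl, for 2.71 (SE 0.49, adjusted p = 1.60e-04). On plate 2 alone, with 3 IR/CHT and 2 Ctrl libraries, the value was 2.97 and not called (adjusted p = 0.0698).

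Against CHT, the IR/CHT aortic valve was higher in PLAUR by 1.73 on the log2 scale (SE 0.57, edgeR adjusted p = 0.0287), with 4 of 7 libraries above all CHT libraries. All 6 CHT libraries were on plate 1. With the plate as a covariate the difference was 1.30 (adjusted p = 0.0978), and on plate 1 alone it was 1.38 (adjusted p = 0.116), so that the call did not hold within the plate. It was also lost without any one of CHT libraries L169 (adjusted p = 0.0703), L186 (0.0748) and L228 (0.0770) or IR/CHT libraries L178 (0.0561) and L194 (1.33, adjusted p = 0.0883).

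In the aorta PLAUR was at 2.15 to 12.3 CPM in CHT libraries, each above the 7 Ctrl libraries (log2 fold change 3.66, SE 0.59, not tested). IR/CHT aorta held 3.68, 12.1 and 31.2 CPM (lowest, median, highest) and no library overlapped with Ctrl. The log2 fold change was 4.78 (SE 0.60, edgeR adjusted p = 4.06e-07), against Ctrl libraries of very few counts. IR/CHT and CHT overlapped and differed by 1.12 (SE 0.52, adjusted p = 0.198).

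Lard aorta had 0.684, 3.29 and 6.23 CPM of PLAUR, with 4 of 7 libraries above all Ctrl. The log2 fold change of 2.33 (SE 0.57, edgeR adjusted p = 0.0223) was the 1 call of the 3 genes on Lard. The call was lost with only the 2 groups in the model (2.33, adjusted p = 0.0839). It was also lost without any one of Ctrl libraries L568 (adjusted p = 0.0548) and L569 (0.0533) or Lard libraries L575 (0.0675) and L578 (0.0565). The log2 fold change was 2.05 to 2.27 in those fits. The summed level of 6 neutrophil genes had a median of 1.28 CPM in Lard aorta and 1.34 CPM in Ctrl aorta. A single Lard library (L562) was at 24.2 CPM and the next at 4.72 CPM. In Lard aorta 1 of 2 tested neutrophil genes and 6 of 13 macrophage genes were called higher than in Ctrl, where 2.61% of all genes were called. Their part in this difference was not tested. In the 4 valves Lard gave log2 fold changes of -0.87 to 0.29, none called.

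In the pulmonary valve PLAUR was at 0.797 to 5.89 CPM on IR/CHT and 0.394 to 3.98 CPM on CHT, against 0.516 to 2.16 CPM on chow. The highest IR/CHT value was that of library L275, which had few endothelial transcripts. The log2 fold change of IR/CHT was 0.94 (SE 0.49, edgeR adjusted p = 0.355), and 0.51 without that library. In the tricuspid valve IR/CHT libraries held 0.385, 1.95 and 10.5 CPM, a log2 fold change of 0.95 (SE 0.66, adjusted p = 0.802) that was 0.15 without library L197, the highest. The pair of libraries with the most PLAUR there, L197 and L276 (4.34 CPM), had the lowest endothelial sums of the group, 594.2 and 363.4 CPM against 1040 to 1626 CPM in the other 5. The part of tissue composition there was not tested.

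The response of PLAUR to IR/CHT was larger in the aortic than in the pulmonary valve by 1.99 on the log2 scale (SE 0.72, edgeR adjusted p = 0.0311), and smaller in the aortic valve than in the aorta, the difference being -1.81 (SE 0.69, adjusted p = 0.0431). The sign of the last difference is opposite to that of PLAU in the same pair of tissues (2.06). The call against the pulmonary valve was lost without any one of 7 of the 14 rabbits compared, and that against the aorta without any one of 8 of 14. The latter was also lost without the rabbit in the model (-1.965, adjusted p = 0.0515), without the filter (-1.891, 0.0666) and with the plate as a covariate (-1.702, 0.0626). The mitral valve exceeded the tricuspid valve by 1.76 for CHT (adjusted p = 0.0981) and by 1.46 for IR/CHT (adjusted p = 0.0600), neither called. The IR/CHT difference was called without any one of the 4 rabbits R08719, R09246, R09676 and R28376, at adjusted p-values of 0.0359 to 0.04998.

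**Figure D3:**
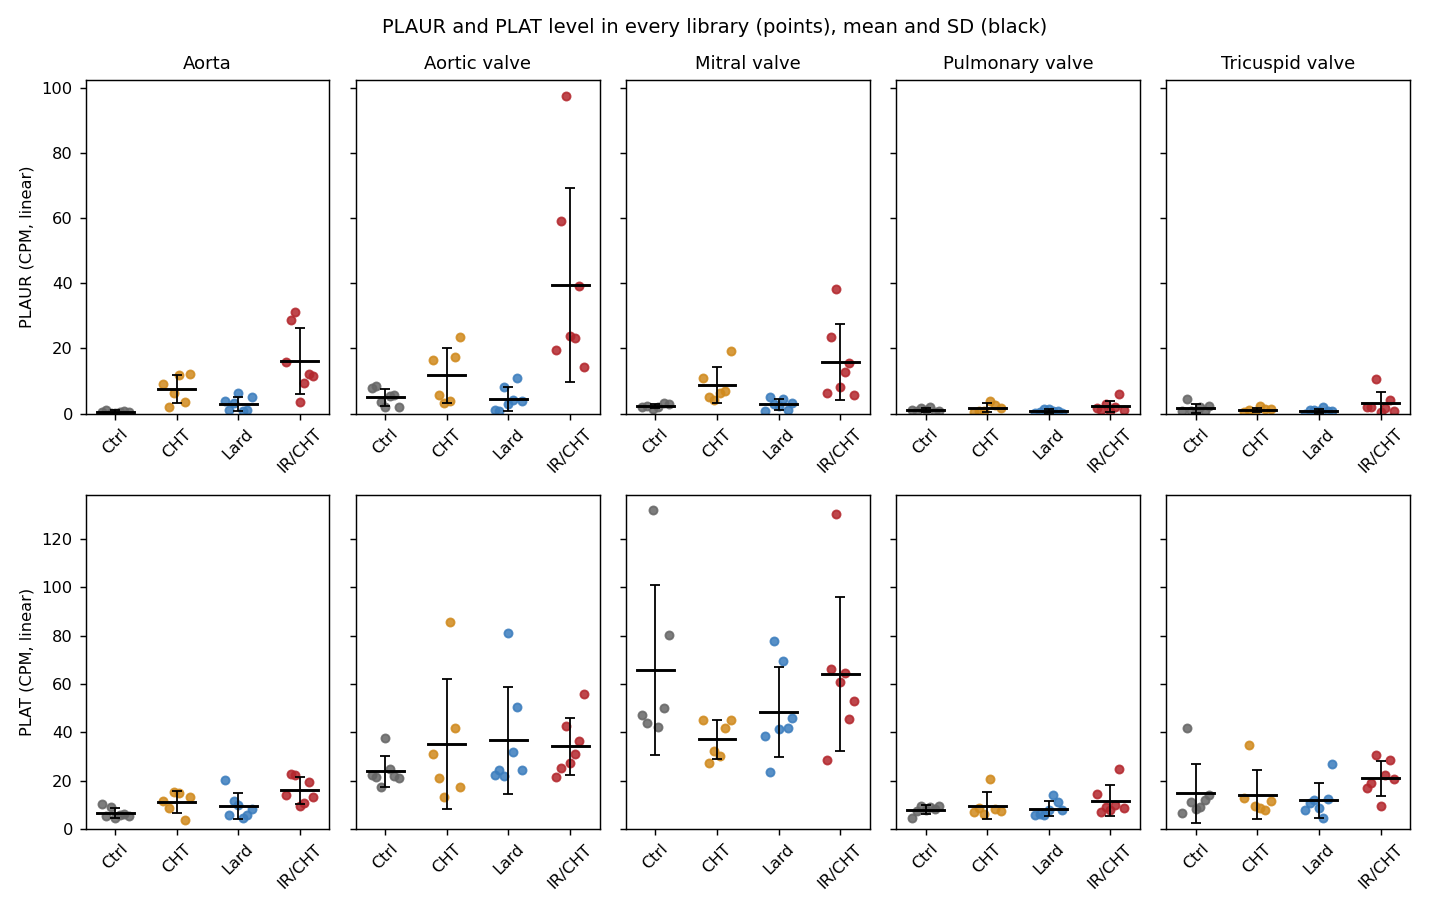
PLAUR (top) and PLAT (bottom) level in CPM (linear axes from 0) in every library by tissue and treatment, with points for libraries and black lines for mean and SD. PLAUR is widely spread among IR/CHT aortic valves, from 14.2 to 97.5 CPM, and the mean of PLAT is highest in the mitral valve in all 4 treatments.

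Within IR/CHT, some rabbits ranked high for PLAUR in several tissues. Rabbit R28392 had the highest PLAUR of the 7 IR/CHT rabbits in 4 of 5 tissues and the second highest in the pulmonary valve (2.97 CPM). Its level was 31.2 CPM in aorta, 97.5 CPM in aortic, 38.2 CPM in mitral and 10.5 CPM in tricuspid tissue. Those 4 libraries were on plate 2, where mean PLAUR was higher in the valves, and its pulmonary valve library was on plate 1. Rabbit R28389 was second in the aorta (28.8 CPM) and the left-sided valves (59.0 CPM in the aortic and 23.6 CPM in the mitral valve) but not in the right-sided valves. Among CHT rabbits, R09684 was highest in the aorta and both left-sided valves. The left-sided valve libraries of R28389 and R09684 were on plate 1. The rabbits named here were picked out after their values were seen. No test was made of the ranks or of the plate's part in them.

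PLAT, the tissue-type activator, was highest in the mitral valve. In chow rabbits its lowest, median and highest level was 42.4, 48.5 and 131.9 CPM in the mitral valve, 17.4, 21.9 and 37.6 CPM in the aortic valve, 6.61, 11.1 and 41.7 CPM in the tricuspid valve, 4.53, 8.08 and 9.56 CPM in the pulmonary valve and 4.31, 5.67 and 10.1 CPM in the aorta. No Ctrl mitral library overlapped with any Ctrl library of another tissue.

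With the rabbit as a block the mitral valve exceeded the aorta by 3.30 on the log2 scale (aorta against mitral valve -3.30, SE 0.35, edgeR adjusted p = 1.36e-08, 0 of 6 rabbits higher in the aorta), the pulmonary valve by 3.07 (SE 0.34, adjusted p = 1.02e-06), the tricuspid valve by 2.32 (SE 0.35, adjusted p = 1.70e-04) and the aortic valve, which was -1.49 against it (SE 0.32, adjusted p = 0.00812). The aortic valve exceeded the aorta (-1.81 for the aorta, adjusted p = 3.87e-05) and the pulmonary valve (1.58, adjusted p = 2.04e-04). Its difference from the tricuspid valve (0.83, adjusted p = 0.0313) was lost without the rabbit in the model (adjusted p = 0.0622), with the plate as a covariate and without most single rabbits. The aorta and pulmonary valve (-0.24, adjusted p = 0.569) and the pulmonary and tricuspid valve (-0.75, adjusted p = 0.135) were not called, and the aorta and tricuspid valve were (-0.98, adjusted p = 0.0173), though not without rabbit R08256 (-0.61, adjusted p = 0.0732) or R08709 (-0.93, adjusted p = 0.0600).

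Over the members and pairs of tissues in chow rabbits, 21 of 30 differences were called, where the share of all genes called was 3.44% (aortic against mitral valve) to 51.2% (aorta against aortic valve).

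Among treatments, PLAT was called in the IR/CHT aorta alone. Levels were 9.38, 13.97 and 22.7 CPM there, with 6 of 7 libraries above the highest Ctrl library, and the log2 fold change was 1.34 (SE 0.33, edgeR adjusted p = 0.00129). CHT aorta held 3.55 to 15.3 CPM (log2 fold change 0.81, SE 0.34, not tested), and Lard aorta 4.29 to 20.2 CPM (0.53, SE 0.32, adjusted p = 0.438). In the mitral valve CHT libraries had 27.3, 37.2 and 45.2 CPM, with 4 of 6 under all Ctrl libraries, and the log2 fold change of -0.84 (SE 0.32, adjusted p = 0.131) was not called. IR/CHT mitral valves had 28.7, 60.7 and 130.3 CPM, at -0.06 against Ctrl (adjusted p = 0.907) and 0.77 against CHT (adjusted p = 0.287), with 6 of 7 above all CHT libraries. The IR/CHT aortic valve had 21.3 to 55.7 CPM (0.51, SE 0.35, adjusted p = 0.238). That difference was 1.04 and called on plate 2 alone (adjusted p = 0.0209), and -0.03 on plate 1 alone, where the means were 26.15 CPM on IR/CHT (n = 4) and 25.8 CPM on chow (n = 3).

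The levels of PLAT had single high libraries in many groups. In the tricuspid valve the highest library was at 41.7 CPM on chow, 34.9 on CHT and 26.8 on Lard, with the next at 14.1, 12.7 and 12.3 CPM. Without the chow library (L168), the log2 fold change of IR/CHT in that valve was 1.09 in place of 0.47 (edgeR adjusted p = 0.0566 and 0.883). In 5 of 16 valve groups the library with the highest PLAT had the lowest sum of endothelial genes of its group, and in 2 the highest. An example is library L275 of the IR/CHT pulmonary valve, with 25.0 CPM of PLAT and 124.1 CPM of endothelial genes. The part of tissue composition in these values was not tested.

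**Figure D4:**
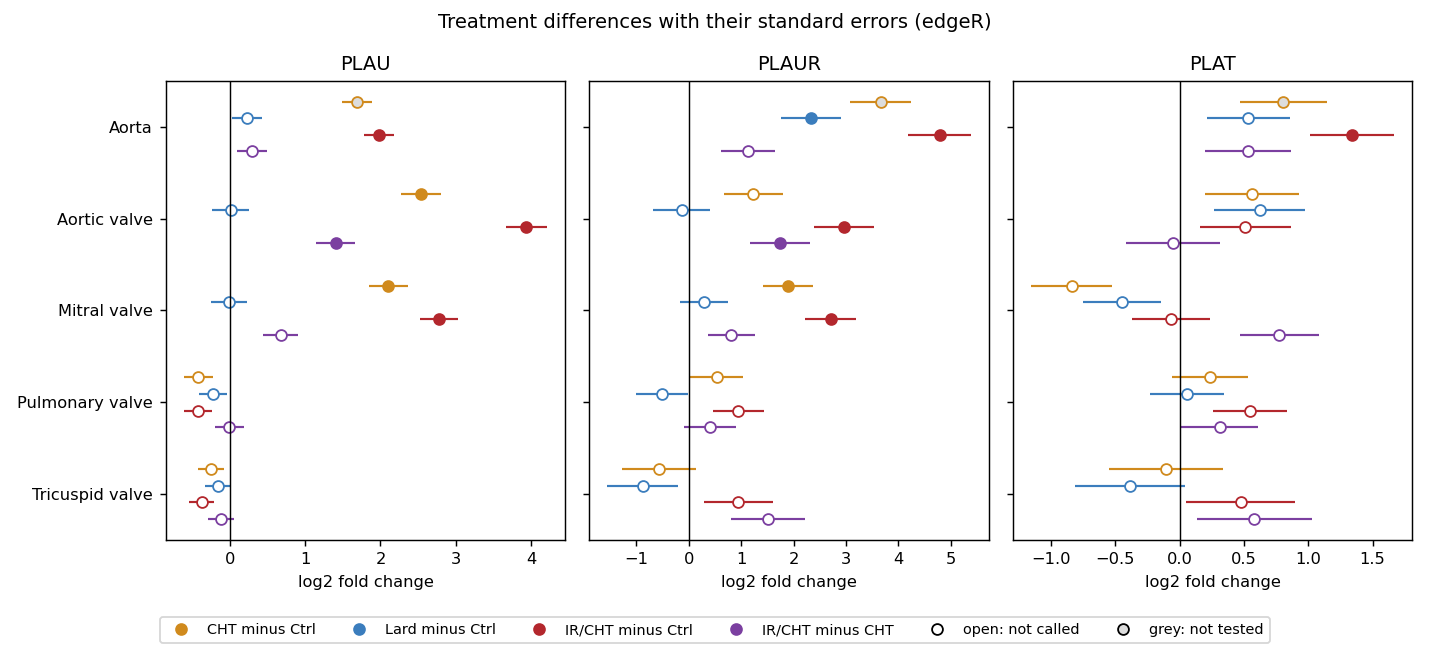
Log2 fold change with its standard error for PLAU, PLAUR and PLAT in 5 tissues and 4 comparisons (edgeR), each panel with its own axis. Filled points were called, open points not, and the grey points of CHT in the aorta were not tested. PLAU and PLAUR points of the right-sided valves are all open.

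The substrate and the inhibitors of the pathway were read from a list of 35 other genes of plasminogen activation, its inhibition, docking, clearance and fibrin, of which 28 had a row with that symbol and 20 or 21 passed the filter in a tissue. PLG, which encodes plasminogen and is made mainly in the liver, had at least 1 read in 11 libraries of the whole series and never more than 10. SERPINB2, an inhibitor of urokinase, had a read in 32 libraries and at most 7. Neither was tested.

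SERPINE2, the gene of protease nexin-1, an inhibitor of urokinase and thrombin, moved in the aorta. It was at 4.91 to 17.5 CPM on chow, 33.4 to 109.8 CPM on CHT, 11.01 to 72.3 CPM on Lard and 64.2 to 105.6 CPM on IR/CHT. The log2 fold changes were 2.51 (edgeR adjusted p = 4.32e-05), 1.88 (adjusted p = 0.00979) and 3.00 (adjusted p = 1.85e-06). With only the 2 groups in the model, no gene of the list was called for Lard in the aorta, SERPINE2 included. In the valves it was called in the IR/CHT aortic valve only, at 0.67 (SE 0.25, adjusted p = 0.0295), with 4 of 7 libraries above Ctrl.

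Of the list in the aortic valve, 8 genes were higher and 1 lower in CHT than in Ctrl among 21 tested, with a median log2 fold change of 0.58 beside -0.02 over all genes. IR/CHT gave 11 higher and 4 lower, with a median of 0.66 beside -0.06, and IR/CHT against CHT 8 higher and 2 lower. Of all genes, 11.9%, 42.8% and 19.7% were called in these 3 comparisons. With the plate as a covariate, 5 genes in place of 9 were called for CHT. Those with the smallest p against Ctrl were ITGAM and ITGB2, the subunits of the integrin Mac-1, which binds the urokinase receptor and is also a marker of myeloid cells. ITGAM rose from a mean of 6.25 CPM to 146.0 on CHT and 457.3 on IR/CHT, and ITGB2 from 11.6 to 120.0 and 569.8 CPM.

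IGF2R, a receptor that binds the urokinase receptor and carries lysosomal enzymes, rose among aortic valves from a mean of 56.9 to one of 229.3 CPM on CHT (log2 fold change 2.02, edgeR adjusted p = 1.15e-05) and to 918.9 CPM on IR/CHT (4.002, adjusted p = 6.02e-11). SORL1, a sorting receptor, was 2.59 higher on the log2 scale on IR/CHT than on chow and 1.48 higher than on CHT (adjusted p = 2.35e-05). Of the 4 genes lower on IR/CHT, those with the smallest p were EGFR, which signals with the urokinase receptor (-1.46, adjusted p = 6.07e-08), F3, the gene of tissue factor (-2.43, adjusted p = 0.00132), and SERPINI1, the gene of neuroserpin, an inhibitor of the tissue-type activator (-0.88, adjusted p = 0.00949). F3 was also lower on CHT (-2.04, adjusted p = 0.0252), and EGFR (-0.96) and A2M, the gene of the protease inhibitor alpha-2-macroglobulin (-1.71, adjusted p = 0.0489), were lower in IR/CHT than in CHT.

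In the mitral valve, CHT gave 5 higher and 0 lower of 21 list genes, and IR/CHT 6 higher and 2 lower, beside 5.62% and 17.7% of all genes called in either direction. The list medians were 0.22 and 0.09, beside -0.02 and -0.01 over all genes. ITGAM (log2 fold change 4.01, edgeR adjusted p = 1.83e-07), ITGB2 (3.12) and IGF2R (1.68) led on CHT, and ITGAM (4.78), IGF2R (2.68, adjusted p = 6.46e-08) and ITGB2 (4.14) on IR/CHT. The lower genes on IR/CHT were EGFR (-0.59, adjusted p = 0.00298) and FGG, the gene of the fibrinogen gamma chain (-1.63, adjusted p = 0.00563), at a mean of 0.763 CPM on chow.

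In the aorta, the untested contrast of the 3 genes aside, IR/CHT gave 9 higher and 5 lower list genes of 20, with a median of 0.43 beside 0.00 over all genes, and Lard 4 higher and 0 lower. CHT gave 7 higher and 1 lower. The shares of all genes called were 34.3%, 2.61% and 19.4%. VLDLR, an endocytic receptor of the LDL receptor family, rose from 9.51 CPM to 75.8 on CHT (log2 fold change 3.02, edgeR adjusted p = 2.77e-09) and 82.5 on IR/CHT (3.17, adjusted p = 3.54e-10). ITGAM rose from 1.43 to 191.4 CPM on IR/CHT (7.11) and to 17.5 CPM on Lard (3.63, adjusted p = 6.37e-04), and ITGB2 was also called on Lard (3.10, adjusted p = 0.00449). Both Lard calls were lost with only the 2 groups in the model. SORL1 rose by 1.64 on CHT and 1.87 on IR/CHT. EGFR (-0.99, adjusted p = 5.35e-07), ITGB1 (-1.07, adjusted p = 1.35e-05) and ITGAV (-0.81, adjusted p = 1.10e-04), an integrin pair of matrix adhesion, were lower on IR/CHT, and SERPINI1 was lower on CHT (-0.79, adjusted p = 0.0185).

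In the right-sided valves, ITGAM was higher on IR/CHT in both the pulmonary (log2 fold change 1.42, edgeR adjusted p = 1.83e-04) and the tricuspid valve (1.74, adjusted p = 1.97e-04), and ITGB2 in the pulmonary valve (1.14, adjusted p = 0.0210). These were the 3 list calls there by edgeR. DESeq2 called 2 list genes in each of the 2 valves on IR/CHT against Ctrl, and 2 in the pulmonary valve for IR/CHT against CHT where edgeR called 0 and 7 passed an unadjusted p under 0.05.

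**Figure D5:**
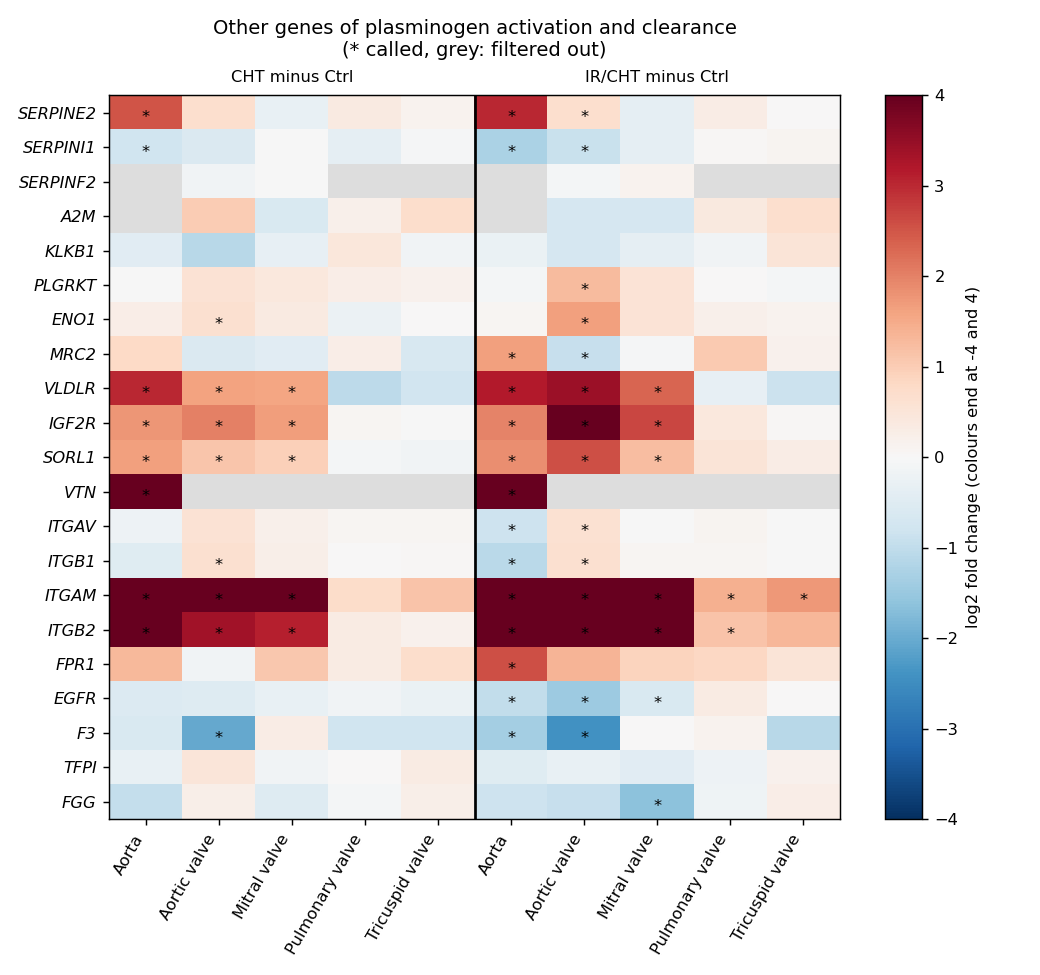
Log2 fold change of listed genes that passed the filter, for CHT (left) and IR/CHT (right) against Ctrl in 5 tissues, with a star for called genes and grey for genes filtered out. Colours end at -4 and 4. ITGAM and ITGB2 are the darkest rows in the aorta and the left-sided valves, where ITGAM reaches 6.18 in the IR/CHT aortic valve, past the end of the colour scale.

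Macrophage markers were also higher in CHT and IR/CHT aorta and left-sided valves. The summed level of 13 macrophage genes was 217.6 to 644.8 CPM in Ctrl aortic valves, 1501 to 2943 CPM on CHT and 5596 to 12110 CPM on IR/CHT, and 238.3 to 694.3, 820.2 to 2433 and 1426 to 4115 CPM in the mitral valve. In the aorta it was 79.4 to 329.1 CPM on chow, 224.8 to 769.8 on Lard, 1196 to 3928 on CHT and 1685 to 6391 on IR/CHT. In the pulmonary and tricuspid valves it was 561.1 to 777.5 CPM on chow and 291.8 to 968.5 CPM on IR/CHT. No gene of the list was at 0 throughout any group. GPNMB, a glycoprotein of lipid-laden macrophages, had the largest rise in mean level, from 7.10 to 1089 and 5356 CPM in the aortic valve, so that it made up most of the sums on IR/CHT there. CD68, a lysosomal protein of macrophages, rose from 26.4 to 204.5 and 716.7 CPM there, while MRC1, the mannose receptor, was at 167.6, 211.7 and 159.6 CPM and CD163, a scavenger receptor, at 47.0, 43.2 and 40.9 CPM. Of the 13 genes, 6 were called higher on CHT and 11 on IR/CHT in the aortic valve, 9 and 10 in the mitral valve, and 11 and 13 in the aorta. The shares of all genes called for CHT and IR/CHT were 11.9% and 42.8% in the aortic valve, 5.62% and 17.7% in the mitral valve and 19.4% and 34.3% in the aorta, and they apply to the other cell type lists too. Calls were also made where PLAU was not called, with 6 in Lard aorta, 3 in the IR/CHT pulmonary valve and 1 in the IR/CHT tricuspid valve. Their part in the levels of PLAU and PLAUR was not tested.

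Other lists moved less evenly. The 6 neutrophil genes with a symbol summed to at most 5.68 CPM in Ctrl, CHT and IR/CHT aortic valves and at most 6.06 CPM in the aorta of those groups, and MPO, a defining gene, was at 0 in all Ctrl and CHT pulmonary valves. On IR/CHT 1 of 2 tested neutrophil genes was called higher in the aorta and 1 of 4 in the aortic valve, and in Lard aorta 1 of 2 was called higher. CD2, the 1 T cell gene with a symbol, reached 5.19 CPM in IR/CHT aortic valves from at most 0.245 CPM on chow. The endothelial genes were higher in the CHT (7 of 8 called) and IR/CHT aorta (7 of 8), and smooth muscle genes were lower (3 and 5 of 6). Fibroblast and valve interstitial genes were also called higher there (3 and 4 of 7), with 1 lower on IR/CHT. Red blood cell genes were lower there (2 and 1 of 2). In the IR/CHT mitral valve 2 of 3 adipocyte genes were lower. In the mitral valve 2 of 6 smooth muscle genes were higher and 0 lower on both CHT and IR/CHT, with MYH11, the smooth muscle myosin heavy chain, at a mean of 37.4 CPM on chow, 379.0 on CHT and 273.4 on IR/CHT. On IR/CHT the aortic valve had 2 higher and 4 lower. For the aortic valve, 6 of 7 heart muscle genes were lower on CHT and on IR/CHT than on chow. In the IR/CHT aorta 5 of 6 tested heart muscle genes were higher and 1 lower (RYR2, the calcium release channel, had a mean of 548.3 CPM on chow and 188.4 CPM on IR/CHT), and library L566 had a sum of 3007 CPM against at most 597.6 CPM in the other 6. That library also had the highest PLAU and PLAT of its group, and without it PLAU, PLAUR and PLAT were all still called there. The part of these cells in the results was not tested.

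Within a group, the library with the highest PLAU had the highest macrophage sum (GPNMB included) of its group in 6 of 20 groups and the lowest in 1. For PLAUR the counts were 2 and 6. By the endothelial sum they were 5 and 3 for PLAU and 6 and 4 for PLAUR. With 6 or 7 libraries in a group, some matches arise for an unrelated list too, and no test was made. Among IR/CHT aortic valves the highest PLAU library (L236, 320.3 CPM) also had the highest macrophage sum (12110 CPM), and the highest PLAUR library (L194, 97.5 CPM) had 6512 CPM, the 4th of 7. In the IR/CHT aorta the library with 31.2 CPM of PLAUR had a sum of 2680 CPM, the 6th of 7.

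The genes whose mean level over the 20 groups was most like that of PLAU were SLC11A2 (Pearson r = 0.990), an iron transporter of endosomes, MPP1 (0.988), a membrane scaffold protein, ATP6V1A (0.985) and ATP6V1H (0.983), subunits of the vacuolar proton pump, and ARPC2 (0.977), a subunit of the actin-nucleating Arp2/3 complex. These were ranked among 11250 genes with a symbol on log2 CPM, and 4 of the 5 were also among the first 5 by Spearman correlation. For PLAUR they were CYTH4 (0.990), GSDMD (0.986), PREX1 (0.986), IRF5 (0.983) and DOK3 (0.983), of which 2 were kept by Spearman. For PLAT they were MMP2 (0.953), the gene of gelatinase A, ETV4 (0.935), ZNF664 (0.928), EFNB1 (0.925) and RFTN1 (0.924), of which 3 were kept. The 20 groups share rabbits across tissues and 4 treatments, so these values describe likeness and carry no p.

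Among themselves the 3 genes were less alike: over the same 20 group means, PLAU and PLAUR had r = 0.780, PLAUR and PLAT 0.615 and PLAU and PLAT 0.151. As an example of a like pattern, SLC11A2 went from a mean of 10.7 ± 2.49 CPM (SD, n = 7) in Ctrl aortic valves to 33.8 ± 12.6 CPM (SD, n = 6) on CHT and 75.1 ± 8.89 CPM (SD, n = 7) on IR/CHT, and in the tricuspid valve it was at 14.4, 13.7 and 12.9 CPM.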

How the data were processed

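RNA of rabbit aorta and heart valves was sequenced from a stranded total RNA kit. The authors mapped reads to OryCun2.0 with the nf-core/rnaseq pipeline (Ensembl annotation) and deposited raw counts of read pairs per gene in 1 table per plate. Pipeline defaults were kept apart from read trimming, and by default this pipeline counts without strand, so antisense overlap cannot be told apart. Every column matched a sample.

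Counts were tested with edgeR 4.0.16 in R 4.3.3 (quasi-likelihood, filterByExpr, TMM, Benjamini-Hochberg adjustment), 1 fit per tissue over 4 treatments. Fits of Ctrl tissues and of responses between tissues had the rabbit, read from the column names, as a block. Deviations of samples from the same rabbit had a median correlation of 0.232 to 0.597 over tissue pairs, against -0.113 to -0.0207 for different rabbits. Interaction fits that left out a rabbit kept the trended dispersions of the fit with all rabbits. DESeq2 1.42.0, other size factors, no filter, the plate, only 2 groups and leaving out each library or rabbit were alternatives. Scripts were tested on simulated data, and no libraries were duplicates.

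The members and gene lists were chosen with earlier results of these data known. Named genes were the members, PLG, SERPINE2 and SERPINB2, up to 3 called list genes of smallest p per tissue, comparison and direction, the 5 genes most like each member and the most abundant cell type markers. An item that the rule names is not reported here, though counts and medians over the list include it. Other genes named for a marker or a contrast with a member were chosen after their values were seen. Totals of 13564979 to 50577676 counts per library limit the precision of low levels, and floors cover counting error only. Sequences and coordinates are not given, the reference table used here being of another build.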

Additional observations from a re-analysis of the deposited data

Results flagged for a closer look

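The response of PLAU differed between tissues of the same rabbits by the interaction test. For the aortic against the pulmonary valve the difference was 2.913 on the log2 scale on CHT and 4.35 on IR/CHT, and for the mitral against the tricuspid valve 2.375 and 3.143. On IR/CHT the aortic valve differed from the mitral valve by 1.199 and from the aorta by 2.062. For PLAUR on IR/CHT the aortic valve differed from the pulmonary valve by 1.994 and from the aorta by -1.813.

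Single libraries lay far from the rest of their group in 10 of 60 gene and group combinations, by a limit set to mark about 1 in 20 groups of normally distributed values. CPM values are skewed and the groups share rabbits, so no rate by chance was computed for these data. For PLAT these were L198 of the Ctrl aortic valve (37.63 CPM, next 24.7), L195 of the IR/CHT mitral valve (130.3, next 66.34), L230 of the CHT pulmonary valve (20.75, next 8.783), L153 of the Ctrl pulmonary valve (4.525, the lowest, next 7.522) and L275 of the IR/CHT pulmonary valve (24.97, next 14.32). In the tricuspid valve they were L172 on CHT (34.87, next 12.67), L168 on chow (41.7, next 14.14) and L546 on Lard (26.81, next 12.29). For PLAUR they were L275 of the IR/CHT pulmonary valve (5.886 CPM, next 2.97) and L197 of the IR/CHT tricuspid valve (10.54, next 4.341). The cause was not tested.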

How the results depend on the processing

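No called value of a member reversed under any alternative run, and all 60 mean levels stayed within 1 SD with CPM of the plain library total. Among uncalled values, 75 changed sign, in 21 results of a size of at most 0.536. With only the 2 groups compared, 0 members in place of 1 were called on Lard over the tissues, and 0 in place of 4 list genes in the aorta. On plate 2 alone, 1 member in place of 2 was called for IR/CHT against Ctrl in the mitral valve. For IR/CHT against CHT in the aortic valve 1 in place of 2 was called with the plate as a covariate and 1 on plate 1 alone. Leaving out 1 library at a time gave 1 to 2 members for CHT in the mitral valve, 0 to 1 for Lard in the aorta and 1 to 2 for IR/CHT against CHT in the aortic valve. The plate as a covariate gave 5 in place of 9 list genes for CHT in the aortic valve. DESeq2 gave 1 in place of 0 list genes for IR/CHT against CHT in the aorta, 1 in the mitral valve and 2 in the pulmonary valve. For the tricuspid valve it gave 1 for CHT (1 also with its size factors) and 2 in place of 1 for IR/CHT. The cause was not tested. Without the replicate block, 18 in place of 21 member differences between Ctrl tissues and 7 in place of 8 interactions were called. Spearman correlation kept 2 of the 5 genes for PLAUR and 3 for PLAT. Few counts limit PLAUR in chow aorta and the right-sided valves.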
